A study of Mus musculus with 4 samples.

Results

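The genes described here are 8 neighbours on distal mouse chromosome 2, in the order Cbln4, Mc3r, Fam210b, Aurka, Cstf1, Cass4, Gcnt7 and Tfap2c, of 19938 genes measured in all. Fam210b and Mc3r were chosen by their measured differences between the groups, which were among the lowest of all genes, and the remaining 6 genes were taken for their position next to them. Each of the 8 was represented by 1 probe set that the platform annotation assigns to that gene alone. The samples were dermal papilla cells, which form the mesenchymal signalling centre under the growing hair, sorted from mouse skin at postnatal day 5. Cells came from Sox2 conditional knockout skin (cKO) and from Sox2 heterozygous skin (Het), with 2 arrays each, labelled as biological replicates 1 and 2. In both groups the sort took cells positive for a Sox2-driven green fluorescent protein and for integrin alpha 9, so the cKO cells as well as the Het cells carry that reporter. The labels give neither the Cre line of the knockout nor whether a replicate is 1 animal or a pool, so the spread between replicates may be partly technical.

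The deposited values are RMA values, taken as log2, and each probe set had been centred so that the median of the 4 arrays is 0. A value is therefore a difference from that median and not an expression level, and a gene that hardly varies may be steadily expressed or not expressed at all. For the same reason the dermal papilla label could not be checked against the level of its markers. With an even number of arrays the centring also places the middle pair of values of every probe set at equal distances above and below 0. In a sorted population, fewer cells that express a gene and less RNA per cell cannot be told apart.

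The 8 genes do not belong to 1 pathway. Fam210b encodes a protein of the mitochondrial inner membrane that has been linked to heme synthesis and red cell maturation. Mc3r encodes a receptor for melanocortin peptides that signals through cyclic AMP and is best known from the brain, where it takes part in energy balance. Aurka encodes a kinase of the mitotic spindle, Cstf1 a subunit of the cleavage stimulation factor that acts at the 3′ end of messenger RNAs, and Cass4 a scaffold protein of the CAS family at cell adhesions. Gcnt7 belongs to a family of glycosyltransferases, Tfap2c encodes an AP-2 transcription factor important in epidermis and trophoblast, and Cbln4 encodes a secreted protein of the cerebellin family that organises synapses.

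The start regions of 4 of these genes are printed: Fam210b and Mc3r had the large differences, and Aurka and Cstf1, the next genes along the chromosome, start head to head. Whether these sequences bear on the differences was not tested. Each window runs from 250 bases before to 50 bases after the annotated start, 5′ to 3′ on the gene's own strand, from RefSeq on GRCm38.p6. In Fam210b the capitals mark GC boxes (GGGCGG, read on both strands), in Mc3r the CCAAT box (CCAAT, both strands), and in Aurka and Cstf1 the 68 bases that the windows share on opposite strands.
Fam210b, chr2:172345327-172345626, plus strand: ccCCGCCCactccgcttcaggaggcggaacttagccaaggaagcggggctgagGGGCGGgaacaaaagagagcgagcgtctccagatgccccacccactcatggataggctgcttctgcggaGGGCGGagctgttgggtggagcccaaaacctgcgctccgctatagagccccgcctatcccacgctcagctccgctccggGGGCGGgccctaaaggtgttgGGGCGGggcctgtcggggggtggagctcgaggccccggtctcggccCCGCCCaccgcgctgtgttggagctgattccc
Mc3r, chr2:172248242-172248541, plus strand: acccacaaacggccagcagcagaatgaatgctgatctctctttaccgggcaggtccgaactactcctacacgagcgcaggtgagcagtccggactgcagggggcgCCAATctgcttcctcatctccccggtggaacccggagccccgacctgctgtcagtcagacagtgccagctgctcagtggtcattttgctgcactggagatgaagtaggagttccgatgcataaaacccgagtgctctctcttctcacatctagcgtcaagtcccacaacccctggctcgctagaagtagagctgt
Aurka, chr2:172370521-172370820, minus strand: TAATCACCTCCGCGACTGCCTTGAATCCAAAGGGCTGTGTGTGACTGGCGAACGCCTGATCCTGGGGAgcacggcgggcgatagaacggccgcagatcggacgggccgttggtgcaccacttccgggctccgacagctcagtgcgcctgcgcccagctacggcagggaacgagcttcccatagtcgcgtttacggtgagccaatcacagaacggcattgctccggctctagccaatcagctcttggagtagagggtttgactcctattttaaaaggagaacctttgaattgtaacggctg
Cstf1, chr2:172370753-172371052, plus strand: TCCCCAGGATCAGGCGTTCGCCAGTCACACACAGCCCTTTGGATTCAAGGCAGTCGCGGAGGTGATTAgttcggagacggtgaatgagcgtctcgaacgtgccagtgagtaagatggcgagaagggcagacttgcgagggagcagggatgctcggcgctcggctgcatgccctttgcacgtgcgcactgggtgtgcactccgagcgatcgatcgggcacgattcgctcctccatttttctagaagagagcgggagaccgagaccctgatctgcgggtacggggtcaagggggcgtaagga

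The Fam210b and Mc3r windows differ in these letters. The Fam210b window held 6 GC boxes and a GC content of 68.7%, with 24 CpG dinucleotides. The Mc3r window held 0 GC boxes, 1 CCAAT box and 14 CpG dinucleotides at a GC content of 57%. Of 32851 windows in the table, 35.7% held at least 1 GC box, 10.7% held 3 or more, and 37.4% held a CCAAT box. Of the core letters bound by SOX proteins, only the forms CATTGT and CTTTGT were searched, on both strands. Other forms were not searched, so a count of 0 does not show that SOX sites are absent. The searched forms occurred in 28.6% of all windows. They occurred 0 times in the windows of Fam210b, Mc3r, Aurka, Cstf1, Cass4 and Cbln4 and 1 time in that of Gcnt7. No window was listed for Tfap2c.

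Fam210b was lower in both cKO arrays than in either Het array. It stood at -0.80 and -1.09 in cKO replicates 1 and 2, against 1.29 and 0.80 in Het replicates 1 and 2, all in log2 units around that 4-array median. The groups were 1.6 apart at their nearest values, which is more than the 0.29 between the cKO replicates and the 0.49 between the Het replicates. The difference, cKO minus Het, was -1.99 ± 0.22 (SE of the fit over all genes, n = 2 arrays per group), a 3.97-fold lower value. It ranked as number 2 among the lowest differences of all genes. Because the gene was chosen for this difference, no test is given for it.

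Mc3r was also lower in both cKO arrays, with more spread. It stood at -0.26 and -0.75 in cKO replicates 1 and 2, against 1.15 and 0.26 in Het replicates 1 and 2. The nearest values of the groups were 0.522 apart, while the replicates were 0.49 apart in cKO and 0.89 apart in Het. The spread within Het thus exceeded the gap between the groups, with Het replicate 1 far above the remaining arrays. The difference was -1.21 ± 0.38 (SE, n = 2 per group), which is 2.32-fold lower, at rank 14 from the lowest, and it too is given without a test. Without Het replicate 1 it was -0.77, and without Het replicate 2 it was -1.66. Fam210b kept to a narrower range, from -2.24 to -1.74, with any single array left out.

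Fam210b and Mc3r are consecutive among the measured genes. Between them the GRCm38.p6 gene table lists 4 genes, all 4 long noncoding RNAs, and 0 of them had a probe set naming it alone. They had the lowest differences of the 1732 measured genes of chromosome 2, ahead of Edn3, an endothelin gene, at -0.76 and Edf1 at -0.74. Differences of at least 2-fold with separate groups were rare over all genes, at 0.115% lower and 0.015% higher in cKO. The contrast chose both genes, so this rarity is a description and not evidence for the locus.

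**Figure D1:**
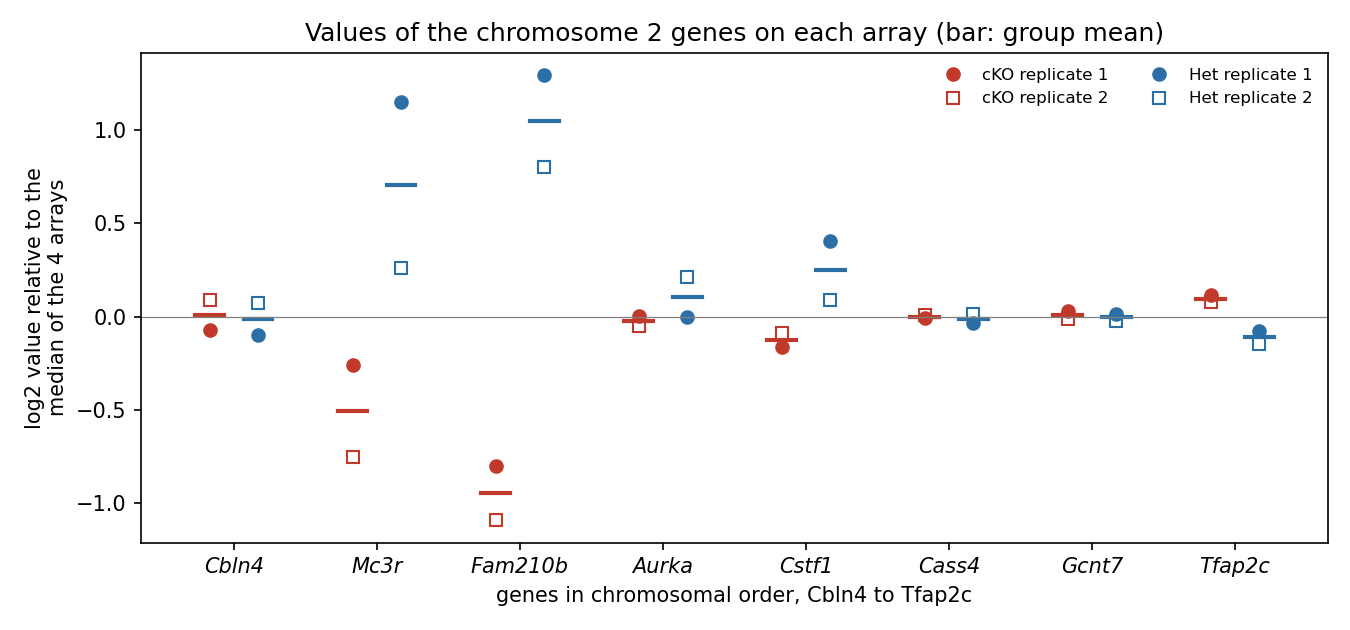
Values of the 8 genes in chromosomal order, in log2 units around the 4-array median, with cKO in red on the left and Het in blue on the right. Filled circles are replicate 1, open squares replicate 2 and bars the group means. Fam210b and Mc3r have group means of -0.95 and -0.51 in cKO, against 1.05 and 0.71 in Het, while the 6 neighbours stay within 0.41 of 0 on every array.

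The remaining 6 genes did not share these differences. Of the 6, Cstf1 was lower in cKO with separate groups, Tfap2c was higher with separate groups, and Aurka, Cass4, Gcnt7 and Cbln4 overlapped between the groups. Over all 19938 genes, 15.6% were lower and 17.8% higher in cKO with separate groups, so 1 of 6 in each direction lies near that background. With Fam210b and Mc3r included, 3 of 8 genes were lower with separate groups, 2 of which the locus was chosen for. By the group means alone 2 of the 6 were lower in cKO, against 47.7% of all genes. The median difference of the 6 genes was 0.011 and that of all genes 0.0034, and the first was -0.038 without Het replicate 1 and -0.028 without cKO replicate 2. For all 8 genes the median was -0.058, and it ran from -0.14 without Het replicate 1 to -0.012 without Het replicate 2.

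Cstf1, the gene of the cleavage factor subunit, was the neighbour with the lowest difference. It stood at -0.16 and -0.089 in cKO replicates 1 and 2, against 0.41 and 0.089 in Het replicates 1 and 2. Both cKO arrays were below both Het arrays, by 0.178 at the nearest, and the Het replicates were 0.32 apart. The difference was -0.37 ± 0.13 (SE, n = 2 per group), which is 1.29-fold lower. Like that of Mc3r it leaned on Het replicate 1, without which it was -0.21.

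Aurka lies between Fam210b and Cstf1, next to Fam210b with 0 annotated genes between, and its start window overlaps that of Cstf1 in the sequences above. It stood at 0.0052 and -0.051 in cKO replicates 1 and 2, against -0.0052 and 0.21 in Het replicates 1 and 2. The groups overlapped, with Het replicate 2 the only array well away from 0. The difference was -0.13 ± 0.091 (SE, n = 2 arrays per group), and without Het replicate 2 it was -0.018. The highest array was Het replicate 2 for Aurka and Het replicate 1 for Cstf1. Whether these genes share control was not tested.

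Tfap2c, at the far end of the interval, was the neighbour that was higher in cKO. It stood at 0.12 and 0.076 in cKO replicates 1 and 2, against -0.076 and -0.15 in Het replicates 1 and 2. The groups were separate by 0.151, with 0.04 between the cKO replicates and 0.072 between the Het replicates. The difference was 0.21 ± 0.047 (SE, n = 2 per group), which is 1.15-fold higher, and it lay between 0.17 and 0.24 when any single array was left out.

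Cbln4, at the other end and next to Mc3r, varied by replicate rather than by group. It stood at -0.071 and 0.087 in cKO replicates 1 and 2, against -0.097 and 0.071 in Het replicates 1 and 2, so replicate 2 was the higher one in both groups. The difference was 0.021 ± 0.094 (SE, n = 2 arrays per group). Cass4 and Gcnt7 hardly varied at all. Cass4 stood at -0.0096 and 0.0096 in cKO replicates 1 and 2, against -0.035 and 0.012 in Het replicates 1 and 2. Gcnt7 stood at 0.03 and -0.015 in cKO replicates 1 and 2, against 0.015 and -0.022 in Het replicates 1 and 2. The whole range over the 4 arrays was 0.0479 for Cass4 and 0.0519 for Gcnt7, smaller than that of most genes (percentiles 11.6 and 13.7 of 19938). Their differences were 0.011 ± 0.04 and 0.011 ± 0.041, with overlapping groups. Centred values cannot say whether these quiet genes were expressed.

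**Figure D2:**
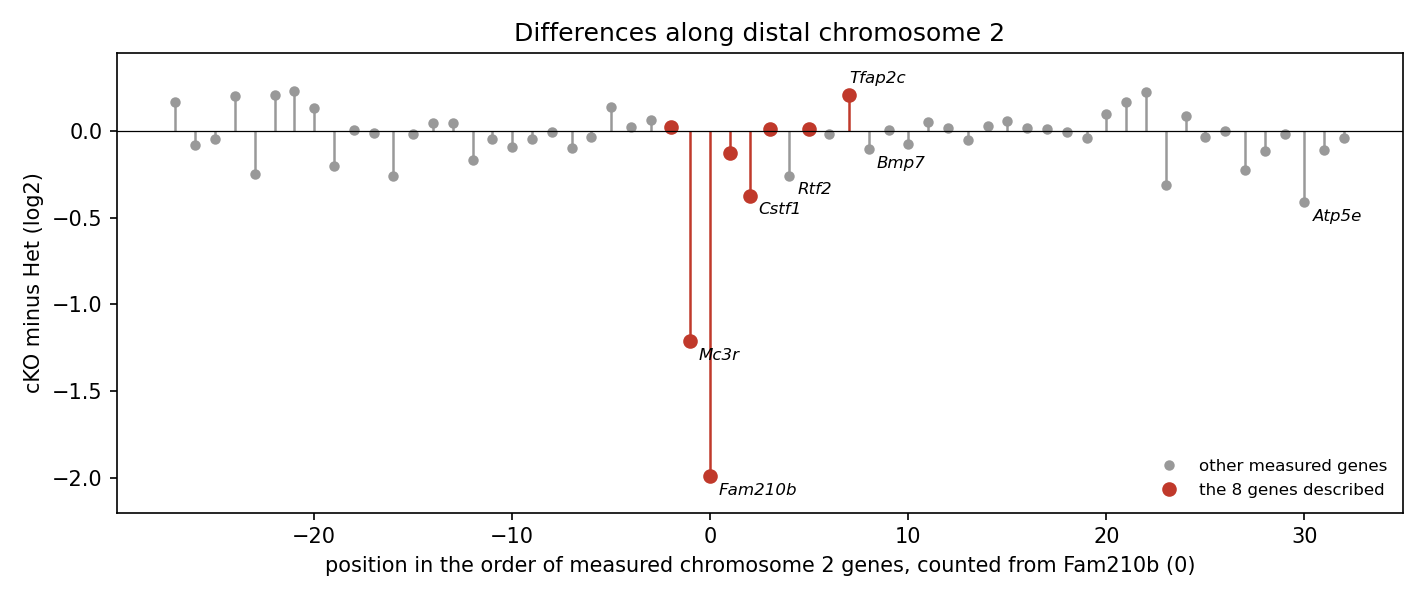
Differences, cKO minus Het on the log2 scale, of the measured chromosome 2 genes in their order along the chromosome, counted from Fam210b at 0, with 25 genes on each side of the interval. Red points are the 8 genes described and grey points other measured genes. Apart from Mc3r and Fam210b, every gene shown lies between -0.41 and 0.23.

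From Cbln4 to Tfap2c the gene table lists 10 protein-coding genes, all of which were measured. The 2 outside the set are Rtf2, which encodes a replication termination factor, and Fam209, a gene of the sperm acrosome. Rtf2 stood at -0.052 and -0.33 in cKO replicates 1 and 2, against 0.052 and 0.075 in Het replicates 1 and 2. The groups were separate, with cKO replicate 2 apart from the other arrays. The difference was -0.26 ± 0.11 (SE, n = 2 arrays per group) and did not pass limma's test over all genes (adjusted p = 0.954). It was -0.12 without cKO replicate 2 and -0.40 without cKO replicate 1. Of all 10 genes of the interval, 4 were lower and 1 higher with separate groups, against 15.6% and 17.8% of all genes. Fam210b and Mc3r, for which the locus was chosen, are among those 4. Fam209 had a difference of -0.015 ± 0.079 with overlapping groups (adjusted p = 1, limma).

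Beyond the interval, 25 measured genes on each side were examined to see how far lower values reach. Of these 50 genes, 0 passed limma's test adjusted over all genes, as did 0 of 19938 genes in all (0%, smallest adjusted p = 0.345). At an unadjusted p under 0.05 there were 3 of the 50, against 5.28% of all genes. With separate groups, 8 of the 50 were lower and 9 higher in cKO, shares close to the background given above. The lower count ran from 16 to 19 with single arrays left out, where 30.4% to 33.4% of all genes were lower with separate groups, and it was 14 where lower in both same-numbered pairs was asked, against 25.9% of all genes. The median difference was -0.013 on the proximal side, before Cbln4, and -0.0062 on the distal side, after Tfap2c. None of the 50 reached 2-fold. Edn3 and Edf1, named above, are not among these 50 genes, and genes of chromosome 2 beyond the 50 were not examined by position.

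The nearest genes on either side were close to 0. On the proximal side Dok5, an adaptor of receptor tyrosine kinases, differed by 0.062 ± 0.087, 4930470P17Rik by 0.021 ± 0.036 and Pfdn4, a prefoldin chaperone subunit gene, by 0.14 ± 0.12. On the distal side Bmp7, which encodes a BMP ligand, differed by -0.10 ± 0.097. Spo11, the meiotic recombination enzyme gene, differed by 0.0035 ± 0.038 and Rae1, a nuclear export factor gene, by -0.074 ± 0.035. The adjusted p-values of these 6 genes lay between 0.958 and 1 (limma).

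The largest differences of the flanks were small beside those of Fam210b and Mc3r. On the proximal side they were -0.26 ± 0.079 for Dpm1, a gene of glycosyl donor synthesis, -0.25 ± 0.15 for Ube2v1, a ubiquitin conjugation factor gene, 0.23 ± 0.14 for the transcription factor gene Cebpb and 0.21 ± 0.13 for Tmem189. Of these, Dpm1 alone had separate groups. On the distal side Atp5e, a subunit gene of the mitochondrial ATP synthase, differed by -0.41 ± 0.35 with overlapping groups, and by -0.027 without cKO replicate 2. Npepl1, an aminopeptidase gene, differed by -0.31 ± 0.064, Nelfcd, a gene of the complex that pauses RNA polymerase, by -0.22 ± 0.13, and the SNARE gene Stx16 by 0.23 ± 0.044, each with separate groups. Without Het replicate 1 the difference of Nelfcd was -0.058, and without cKO replicate 2 those of Ube2v1 and Cebpb were -0.073 and 0.065. That of Tmem189 was 0.052 without cKO replicate 1. The adjusted p-values of these 8 genes ran from 0.897 to 0.986 (limma).

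**Figure D3:**
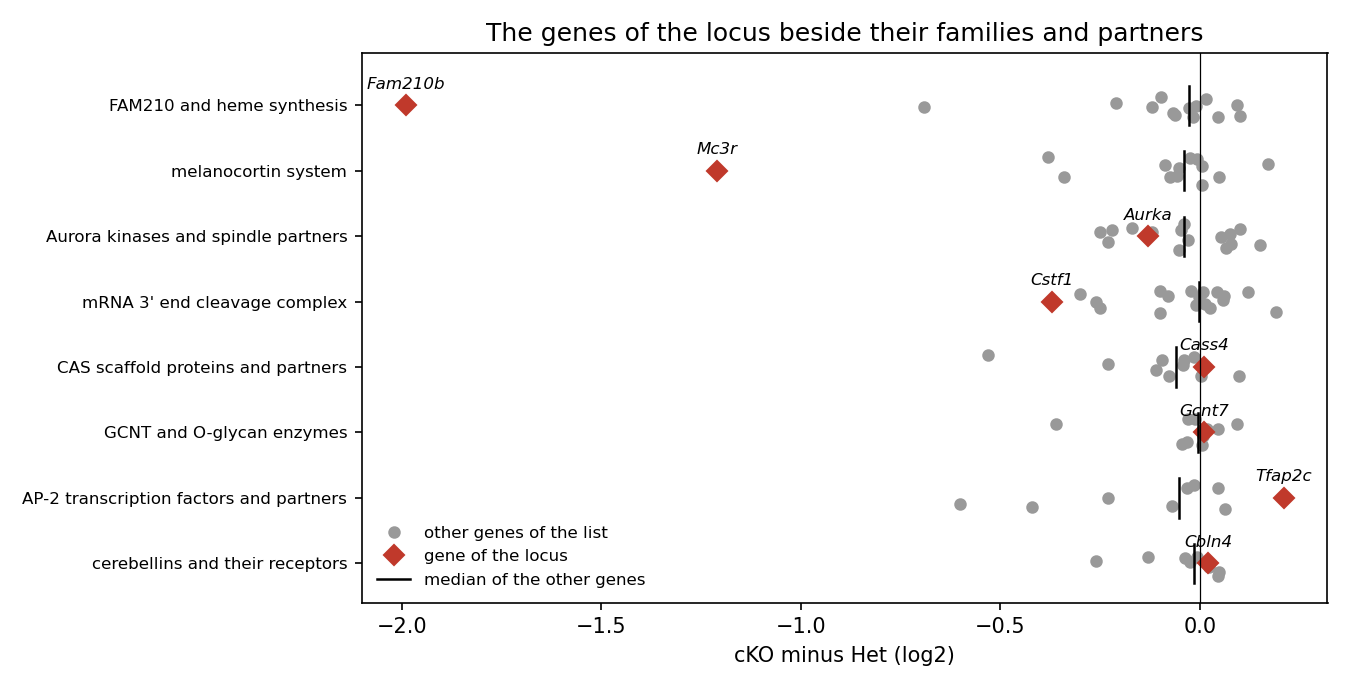
Differences, cKO minus Het on the log2 scale, of each gene of the locus (red diamonds) and of the other measured genes of its family and working partners (grey points, spread vertically for visibility), with the median of the other genes as a black line. The medians of the other genes lie between -0.06 and -0.0027 in the 8 lists, while Fam210b is at -1.99 and Mc3r at -1.21.

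Each gene of the locus was then set beside a list of its relatives and partners, chosen for function. Across the 8 lists, 0 genes passed limma's test over all genes. As 0 of all 19938 genes passed, that count tells nothing particular about the lists. For comparison with the list counts below, 47.7% of all genes were lower by the group means. Of all genes 15.6% were lower and 17.8% higher with separate groups. The list medians given below lie close to 0, and several changed sign with 1 array left out: without Het replicate 1 the heme list stood at 0.00011, the melanocortin list at 0.014 and the 3′ end list at 0.019, without Het replicate 2 the O-glycan list at 0.019, and without cKO replicate 2 the spindle list at 0.042. The cerebellin list stood at 0.021 without Het replicate 1 and at -0.11 without Het replicate 2. The CAS and AP-2 lists kept their sign, and were lowest without cKO replicate 2, at -0.12 and -0.097. Heme synthesis genes, to which Fam210b has been linked, had 9 of 13 measured genes lower by the group means and 4 higher, apart from Fam210b, with 2 lower and 1 higher with separate groups and a median of -0.026. Its relative Fam210a, also mitochondrial, differed by -0.016 ± 0.12 with overlapping groups. Tmem14c, whose product carries a heme precursor into mitochondria, stood at -0.17 and -0.37 in cKO replicates 1 and 2, against 0.67 and 0.17 in Het replicates 1 and 2. Both cKO arrays were the lower ones, and the difference of -0.69 ± 0.20 did not pass (adjusted p = 0.936, limma). Alad and Urod, enzymes of the pathway, differed by -0.21 ± 0.16 and -0.12 ± 0.043. The difference of Alad rested on Het replicate 1, without which it was -0.0057. Of the erythroid markers, 4 of 9 were lower and 5 higher, with a median of 0.02.

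In the melanocortin list, 8 of 12 measured genes apart from Mc3r were lower by the group means and 4 higher, with 1 lower and 0 higher with separate groups and a median of -0.038. The other receptors of the family overlapped between the groups: Mc1r, the receptor of pigment cells, differed by -0.053 ± 0.11, Mc2r, the corticotropin receptor, by 0.17 ± 0.33, Mc4r by -0.024 ± 0.053 and Mc5r by -0.074 ± 0.22. Atrn, which encodes attractin, a membrane protein needed for agouti to act on melanocortin receptors in hair, stood at -0.18 and -0.12 in cKO replicates 1 and 2, against 0.25 and 0.12 in Het replicates 1 and 2. Its groups were separate, with a difference of -0.34 ± 0.064 (adjusted p = 0.897, limma). Atrn lies on chromosome 2 as well. Cpe, an enzyme that trims peptide hormones, differed by -0.38 ± 0.33 and by 0.0069 without Het replicate 1, and the accessory protein gene Mrap2 by -0.086 ± 0.09.

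The spindle partners of Aurka were lower in 9 of 15 cases and higher in 6, with a median of -0.04, and 1 gene in each direction had separate groups. Its relatives Aurkb and Aurkc differed by 0.075 ± 0.10 and 0.054 ± 0.039. Ckap5, Cenpa and Birc5, which act at microtubules and centromeres, differed by -0.25 ± 0.22, -0.23 ± 0.19 and -0.22 ± 0.22, each with its lowest value in cKO replicate 2, without which they differed by 0.018, -0.0019 and 0.067. Among the 3′ end processing genes, 9 of 17 were lower and 8 higher, with a median of -0.0027, and 2 were lower and 0 higher with separate groups. The companion subunits of the cleavage stimulation factor, Cstf2, Cstf2t and Cstf3, differed by 0.044 ± 0.056, -0.0027 ± 0.047 and 0.06 ± 0.10, all with overlapping groups, so the lower value of Cstf1 was not seen in them. Cpsf3, the nuclease that cuts the transcript, differed by -0.30 ± 0.16, Nudt21 by -0.26 ± 0.17 and Pabpn1 by -0.25 ± 0.14. Without Het replicate 1 the difference of Nudt21 was -0.086, and without cKO replicate 2 that of Pabpn1 was -0.072.

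Partners of the remaining genes were mixed. For Cass4, 8 of 10 genes of the CAS list were lower and 2 higher, 3 of them lower and 1 higher with separate groups, with a median of -0.06. Its relatives Bcar1 and Efs differed by -0.11 ± 0.054 and -0.23 ± 0.088 with separate groups, and Dock1, which activates the GTPase RAC at adhesions, by -0.53 ± 0.30 with overlapping groups. The O-glycan enzymes beside Gcnt7 were lower in 5 and higher in 5 of 10 cases, with a median of -0.0042. With separate groups 2 were lower and 2 higher. The relatives Gcnt1, Gcnt2, Gcnt3 and Gcnt4 lay between -0.031 and 0.045. C1galt1c1, a chaperone of the enzyme that starts core O-glycans, differed by -0.36 ± 0.17.

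The AP-2 factors went in different directions. Tfap2a, the closest partner of Tfap2c in epidermis, stood at -0.099 and -0.36 in cKO replicates 1 and 2, against 0.099 and 0.29 in Het replicates 1 and 2, and was thus lower in both cKO arrays where Tfap2c was higher. Its difference was -0.42 ± 0.13 (adjusted p = 0.936, limma). Kctd1 and Kctd15, whose products repress AP-2 activity, differed by -0.60 ± 0.19 and -0.23 ± 0.095 with separate groups. Of the 8 genes of this list apart from Tfap2c, 6 were lower and 2 higher, with a median of -0.051. Separate groups were found for 3 lower genes and 1 higher gene. Of the 8 cerebellins and receptors beside Cbln4, 5 were lower and 3 higher, with a median of -0.016. With separate groups 1 was lower and 2 were higher. Cbln1, Cbln2 and Cbln3 differed by -0.0067 ± 0.051, 0.049 ± 0.042 and -0.024 ± 0.058, and Neo1, a netrin receptor relative, by -0.26 ± 0.18. Without Het replicate 1 the difference of Neo1 was -0.058.

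**Figure D4:**
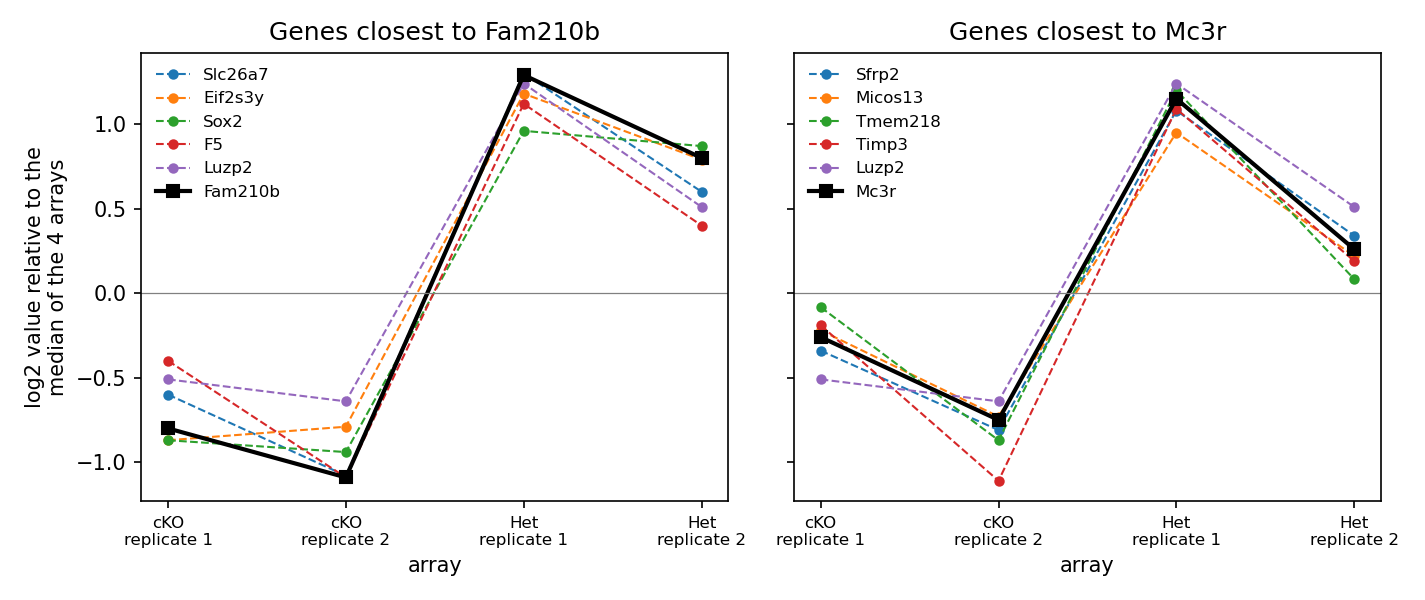
Values of Fam210b (left, black) and Mc3r (right, black) on the 4 arrays, with the 5 genes outside the locus that lie closest to each, in log2 units around the 4-array median; lines only link the points of a gene. All genes shown are below 0 in both cKO arrays and above 0 in both Het arrays. The centring gives this pattern to any probe set whose cKO values both lie below its Het values.

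The genes closest to Fam210b and Mc3r over the 4 arrays lay elsewhere in the genome. Closeness was the root mean square difference of the log2 values over the 4 arrays. Closest to Fam210b were the anion transporter gene Slc26a7 at 0.14, the Y-linked translation factor gene Eif2s3y at 0.166 and Sox2 at 0.19, followed by the coagulation factor gene F5 at 0.295 and Luzp2 at 0.306. Closest to Mc3r were the WNT inhibitor gene Sfrp2 at 0.0718, the mitochondrial membrane gene Micos13 at 0.107, Tmem218 at 0.142, the metalloproteinase inhibitor gene Timp3 at 0.188 and Luzp2 at 0.19. Mc3r was number 12 among the genes closest to Fam210b, at 0.422, and Fam210b number 125 among those closest to Mc3r. With 4 arrays, closeness says mainly that genes share a direction and a size.

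Sox2 itself was lower in cKO, at -0.87 and -0.94 in cKO replicates 1 and 2, against 0.96 and 0.87 in Het replicates 1 and 2. Even its difference of -1.81 ± 0.056 did not pass (adjusted p = 0.345, limma). Not passing is therefore no evidence that a gene was unchanged. Of 7 measured sex-linked genes, 3 were lower and 3 higher in cKO with separate groups, and 1 overlapped. The 3 lower genes are all Y-linked, and the 3 higher genes and the 1 that overlapped are X-linked. Sex-linked values and genotype thus run together in these 4 arrays. Xist, the X-inactivation RNA, stood at 0.85 and 1.23 in cKO, against -4.08 and -0.85 in Het. Its Het replicate 1 minus replicate 2 was -3.23, larger in size than the gap of 1.71 between the groups. The Y-linked Eif2s3y, Kdm5d and Uty differed by -1.81 ± 0.16, -0.75 ± 0.14 and -0.59 ± 0.14, each lower in both cKO arrays. Among the markers of other cells that a skin sort could hold, 8 of 9 dermal fibroblast genes, 10 of 12 keratinocyte genes, 7 of 9 hair matrix and shaft genes, 6 of 9 Schwann and glial genes and 7 of 8 dermal sheath and smooth muscle genes were lower in cKO by their means, against 47.7% of all genes. With separate groups, 4 of 9 fibroblast, 2 of 12 keratinocyte, 2 of 9 matrix and shaft, 3 of 9 Schwann and glial and 2 of 8 sheath genes were lower, against 15.6% of all genes. Higher with separate groups were 1 of 9 fibroblast genes and 0 genes in each of the remaining lists just named. The medians of these lists ran from -0.27 in fibroblasts to -0.075 in the sheath list. The array medians of the keratinocyte list were -0.047 and 0.018 in cKO replicates 1 and 2, against -0.074 and 0.38 in Het. Those of the matrix and shaft list were 0.052 and -0.16 in cKO, against -0.12 and 0.12 in Het. In both lists Het replicate 2 had the highest median, and Het replicate 1 was not above both cKO arrays. The Schwann and glial list held large single differences, and the genes named from it were chosen after their values were seen. Egr2, a transcription factor of myelinating Schwann cells, stood at -0.48 and -1.05 in cKO replicates 1 and 2, against 0.48 and 0.69 in Het replicates 1 and 2, and its difference of -1.35 ± 0.23 (adjusted p = 0.897, limma) was larger in size than that of Mc3r. Fabp7, a fatty acid binding protein of glia, differed by -0.82 ± 0.081 (adjusted p = 0.897, limma), also with separate groups, while Sox10, a defining factor of the lineage, differed by -0.11 ± 0.11 with overlapping groups. The 3 higher genes of the list, Ngfr, Foxd3 and Mbp, differed by 0.09 ± 0.068, 0.086 ± 0.068 and 0.039 ± 0.045, all with overlapping groups. The melanocyte, Merkel, endothelial and immune lists had medians of -0.054, -0.019, -0.0096 and 0.011. By their means 6 of 10, 6 of 9, 4 of 7 and 4 of 8 of these genes were lower. With separate groups 0, 1, 1 and 2 were lower and 0, 1, 2 and 3 higher, in the same order of lists. Of 15 dermal papilla markers, 8 were lower and 7 higher, with a median of -0.071. With separate groups 5 were lower, Sox2 among them, and 4 higher, against 15.6% and 17.8% of all genes. Their median absolute difference, Sox2 included, was 0.397, against 0.047 for all genes, which may include genes not expressed in these cells. The list was chosen with earlier results of these data known, so this larger value is a description only. The part of sex and of cell makeup in the differences of Fam210b and Mc3r was not tested.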

How the data were processed

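RNA of sorted dermal papilla cells was extracted with a microprep kit, amplified and labelled with biotin, per the labels' protocols, and measured on 4 arrays with 28853 probe sets. Per the submitters' processing notes the authors applied RMA, and the deposited values are taken as log2; the sources used here state neither the log base nor the version nor how the centring was done. In the file the median of the 4 arrays is 0 for every probe set, within 1e-06, so no filter on level could be set.

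Probe sets naming 1 gene (21789) were kept, 1621 naming several genes and 5443 naming none were not, and values were averaged per gene. Gene order, names and windows come from RefSeq (GRCm38.p6). The comparison of cKO with Het was fitted in R 4.3.3 with limma 3.58.1 over all 19938 genes (lmFit, eBayes, two-sided, Benjamini-Hochberg, threshold 0.05), and its SE is printed; the fit was tested on simulated data. Figures used matplotlib 3.10.9. The members and lists were chosen with earlier results of these data known. Genes outside the set were named by rule: all between Cbln4 and Tfap2c, the 3 nearest and 4 largest differences per flank, the relatives and the 3 largest differences per list (described in part), the 5 closest profiles per gene, Sox2 and 4 sex-linked genes; Edn3 and Edf1 were chosen after their values were seen. Alternatives were other scalings, gene summaries, priors, an SD filter, a replicate block and each array left out.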

Additional observations from a re-analysis of the deposited data

How the results depend on the processing

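Fam210b and Mc3r stayed lower in cKO under all 10 alternatives run for them (other scalings, other gene summaries, the SD filter, the replicate block and each array left out), and differed by -1.90 and -1.09 after quantile normalization. With single arrays left out, Fam210b ran from -2.24 to -1.74, Mc3r from -1.66 to -0.77, the number of the 8 genes lower with separate groups from 3 to 5 (30.4% to 33.4% of all genes, against 15.6% with all 4 arrays) and their median from -0.14 to -0.012. The filter that kept the genes above the median SD over all 4 arrays removed Cass4 and Gcnt7, which moved the median of the 6 left to -0.25. That filter also gave 116 of 9969 genes past limma's threshold (777 at an unadjusted p under 0.05), with prior degrees of freedom of 66.5 in place of 1.52, but the SD holds the difference between the groups itself, so these calls support nothing; the other alternatives gave 0. The samples share replicate numbers but no label ties the numbers to a litter or day. With the replicate block the differences are the same by construction, 0 genes passed, 1625 lay under an unadjusted p of 0.05 (1053 without the block), and 3 of the 8 genes were lower and 3 higher in both same-numbered pairs, against 25.9% and 28.3% of all genes. Within-group deviations of same-numbered arrays correlated at 0.304 over genes. With 2 arrays per group, small differences among the 6 neighbours are not detectable.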
